A study of Mus musculus with 34 samples.

Results

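H3K4me3 and H3K27ac were compared in 1000 C2C12 cells each, 3 libraries against 3, out of 34 samples in the series. C2C12 is a mouse myoblast line whose cells fuse into muscle fibres when serum is withdrawn. The assay, multi-target chromatin integration labelling (mtChIL-seq), uses antibodies that carry a DNA probe, which a transposase inserts into the DNA near the bound target. The H3K4me3 libraries come from cells stained for H3K4me3 and CTCF together, and the H3K27ac libraries from other cells stained for H3K27ac and Pol2S2P together, the elongating form of RNA polymerase II. The labels give no treatment and no genetic change for either group, and do not say whether replicates are separate cultures. Antibody and staining partner therefore changed together between the groups and cannot be told apart. Nor can fewer cells carrying a mark be told apart from less of it per cell. Libraries held 719766 to 1317176 counts for H3K4me3 and 2906302 to 3139311 for H3K27ac, so a level in H3K4me3 rests on fewer counts than the same level in H3K27ac.

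H3K4me3 is trimethylation of lysine 4 of histone H3. It is laid down by SET1 and MLL complexes and marks the starts of active genes, above all those in CpG islands. H3K27ac is acetylation of lysine 27 of the same histone, written by p300 and CBP, and marks both active gene starts and active enhancers. In muscle cells the pair is commonly used to separate promoters from distal regulatory elements.

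H3K4me3 was gathered at gene ends, and a larger share of H3K27ac than of H3K4me3 lay in distal chromatin. A gene end here is the 1 kb bins within 1 kb of the annotated start of a protein-coding gene, or, for 4135 of 21409 genes with no start in the annotation used, of the end with more counts in libraries of other targets (a marked end). These ends are 2.30% of the bins of the autosomes and X. They held 22.3%, 20.95% and 21.6% of the counts of the H3K4me3 libraries, against 4.92%, 5.13% and 5.11% in the H3K27ac libraries. The groups lie far apart, and the difference of 16.5 percentage points is over 20 times the larger SD (21.6% ± 0.659 and 5.05% ± 0.112, SD, n = 3 each; exact two-sided permutation p = 0.1, the smallest that 3 against 3 can give).

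The rest of the genome showed the opposite order. This follows in large part from the shares at gene ends, since the shares of a library add up to the whole. Distal bins, those more than 2 kb away from all gene ends, are 92.9% of the bins. They held 67.8% ± 0.758 of H3K4me3 counts, against 87.9% ± 0.153 of H3K27ac counts (SD, n = 3 each; exact p = 0.1). Both shares were below the 92.9% of bins. Distal bins outside genes, 57.8% of the bins, held 32.1% of H3K4me3 and 44.2% of H3K27ac counts. Those inside genes, 35.1% of the bins, held 35.8% of H3K4me3 and 43.7% of H3K27ac counts. The groups again did not overlap. The H3K27ac share was thus below the share of bins outside genes and above it inside genes. H3K4me3 was also packed into fewer bins. With every library thinned to 719766 counts, the 1% of bins with the highest counts held 31.0%, 29.1% and 29.9% of H3K4me3 counts, against 15.9%, 16.9% and 16.6% of H3K27ac counts (exact p = 0.1). Without thinning the means were 29.5% for H3K4me3 and 13.8% for H3K27ac.

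Around 17264 annotated starts, H3K4me3 reached 13.98 times the genome mean in the bin that holds the start and 11.3 times in the next bin into the gene, and 6.03 times in the bin before the start. H3K27ac reached 2.30 times in the start bin, 2.29 times in the next bin into the gene and 2.14 times in the bin before the start. Both marks thus leaned into the gene, H3K4me3 by more. Both had returned near their surroundings 5 bins into the gene, at 2.07 times the mean for H3K4me3 and 1.52 times for H3K27ac.

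**Figure D1:**
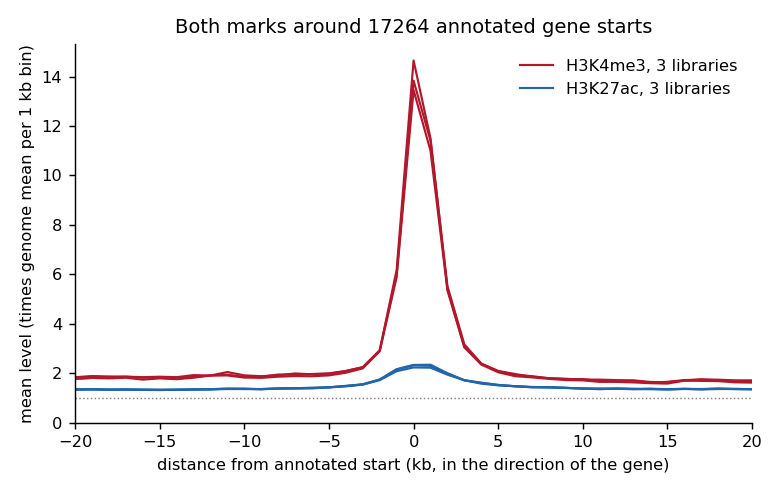
Mean level of each mark around annotated gene starts, as a multiple of the genome mean per 1 kb bin, against the distance from the start in kb; each line is 1 library. The 3 H3K4me3 lines peak near 14 times the mean at the start and the 3 H3K27ac lines near 2.3 times.

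Of the 10000 bins with the most H3K4me3, 74.1% lay at gene ends, against 8.44% of the 10000 bins with the most H3K27ac. The lists shared 1280 bins, 12.8% of each, and 42.9% of the shared bins were at gene ends. Within a mark the lists were far more alike across stainings of other cell numbers: 84.5% of the H3K4me3 bins were also in the list from 10000 cells, and 69.3% of the H3K27ac bins in the list from 100 cells.

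Gene starts lower in H3K4me3 were mostly poor in CpG, although most starts poor in CpG were not lower. The promoters of 3 starts lower in H3K4me3 are printed first and those of 3 starts higher in H3K4me3 after them, to show the difference in CpG content; Ccl8 was picked for its TATAAA letters in place of Rapgef2, which had a larger fall and 8 CpGs. Each is the 300 bases from 250 before to 50 after the start, from RefSeq annotation of GRCm38.p6, 5′ to 3′ on the strand of the gene, and capitals mark CpG dinucleotides. The lower ones are Tnni3k (chr3:155055358-155055657, minus strand), which encodes a heart muscle kinase that binds troponin I, Lman1l (chr9:57620725-57621024, minus strand), which encodes a lectin-like protein, and Ccl8 (chr11:82114935-82115234, plus strand), which encodes a chemokine that attracts monocytes. The higher ones are Usp3 (chr9:66593066-66593365, minus strand), a histone deubiquitinase, Acvr2a (chr2:48813859-48814158, plus strand), a receptor for activins and myostatin, and Wdr5 (chr2:27514897-27515196, plus strand), a core subunit of the H3K4 methyltransferase complexes.
Tnni3k: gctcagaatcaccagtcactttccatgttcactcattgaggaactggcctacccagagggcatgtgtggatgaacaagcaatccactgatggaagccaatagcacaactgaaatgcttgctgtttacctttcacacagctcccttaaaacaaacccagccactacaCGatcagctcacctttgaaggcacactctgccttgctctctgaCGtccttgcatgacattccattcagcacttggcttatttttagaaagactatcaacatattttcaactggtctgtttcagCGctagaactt
Lman1l: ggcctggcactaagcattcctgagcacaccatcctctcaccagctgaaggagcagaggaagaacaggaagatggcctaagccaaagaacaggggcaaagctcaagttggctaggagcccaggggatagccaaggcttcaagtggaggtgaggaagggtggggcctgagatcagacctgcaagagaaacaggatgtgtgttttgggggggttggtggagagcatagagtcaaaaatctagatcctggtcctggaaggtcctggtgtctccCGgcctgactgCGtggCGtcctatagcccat
Ccl8: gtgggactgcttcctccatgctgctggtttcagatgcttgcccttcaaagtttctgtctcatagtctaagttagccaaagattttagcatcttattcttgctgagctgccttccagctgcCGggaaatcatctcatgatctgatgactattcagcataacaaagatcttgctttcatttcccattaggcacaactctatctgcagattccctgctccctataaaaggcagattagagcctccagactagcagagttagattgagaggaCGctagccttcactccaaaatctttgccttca
Usp3: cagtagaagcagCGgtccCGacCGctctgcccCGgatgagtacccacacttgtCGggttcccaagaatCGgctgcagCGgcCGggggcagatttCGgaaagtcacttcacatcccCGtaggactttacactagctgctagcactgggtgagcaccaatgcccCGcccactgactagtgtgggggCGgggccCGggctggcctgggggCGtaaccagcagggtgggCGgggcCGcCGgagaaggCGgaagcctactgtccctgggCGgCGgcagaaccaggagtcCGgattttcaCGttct
Acvr2a: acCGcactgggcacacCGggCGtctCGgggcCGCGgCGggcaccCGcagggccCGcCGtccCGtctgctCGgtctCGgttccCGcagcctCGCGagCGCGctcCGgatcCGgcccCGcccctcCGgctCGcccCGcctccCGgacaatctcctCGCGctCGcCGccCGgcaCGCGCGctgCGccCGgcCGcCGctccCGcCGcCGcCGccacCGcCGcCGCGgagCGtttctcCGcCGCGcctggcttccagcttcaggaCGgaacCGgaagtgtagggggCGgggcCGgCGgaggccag
Wdr5: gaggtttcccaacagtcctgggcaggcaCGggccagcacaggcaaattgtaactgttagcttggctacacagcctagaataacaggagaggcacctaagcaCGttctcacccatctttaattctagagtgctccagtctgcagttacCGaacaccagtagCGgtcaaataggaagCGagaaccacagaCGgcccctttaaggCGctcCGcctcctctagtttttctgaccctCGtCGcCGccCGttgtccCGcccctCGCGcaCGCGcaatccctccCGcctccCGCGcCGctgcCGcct

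The Tnni3k, Lman1l and Ccl8 promoters hold 3, 3 and 2 CpGs, and the Usp3, Acvr2a and Wdr5 promoters 22, 54 and 22. Over all 17274 promoters the median was 14 CpGs. The 10 largest in each direction met at 8 CpGs, which Mbip has among the higher and Rapgef2 and Prss56 among the lower. Both marks rose with CpG content, H3K4me3 more steeply. Starts with 0 to 2 CpGs (n = 3222) stood at 0.824 ± 0.005 times the genome mean in H3K4me3 and 0.743 ± 0.003 times in H3K27ac, whereas starts with 27 to 65 CpGs (n = 3534) stood at 19.96 ± 0.751 times in H3K4me3 and 3.32 ± 0.080 times in H3K27ac (SD, n = 3 libraries each). The median log2 fold change of the starts tested was 0.56 in the lowest class and 2.70 in the highest. The 58 annotated starts lower in H3K4me3 had a median of 4 CpGs, against 23 for the starts tested. Of 561 tested starts with 0 to 8 CpGs, 50 were lower. The letters TATAAA were searched on both strands between 45 and 6 bases before the start. They stood in 9 of these 58 promoters (15.5%), against 3.90% of all promoters and 1.22% of those tested. Clustered histone genes such as H2ac4, which holds TATAAA, are among the 58. How many of the 9 are histone genes was not counted. The letters TGANTCA, an AP-1 motif, were searched on both strands of the 300 bases. They stood in 7 of the 58 (12.1%), against 7.09% of all promoters and 4.05% of those tested. CAGCTG, an E-box motif searched in the same way, stood in 14 of the 58 (24.1%), against 15.2% and 12.9%. These matches are descriptions of the sequence and no sign of binding.

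**Figure D2:**
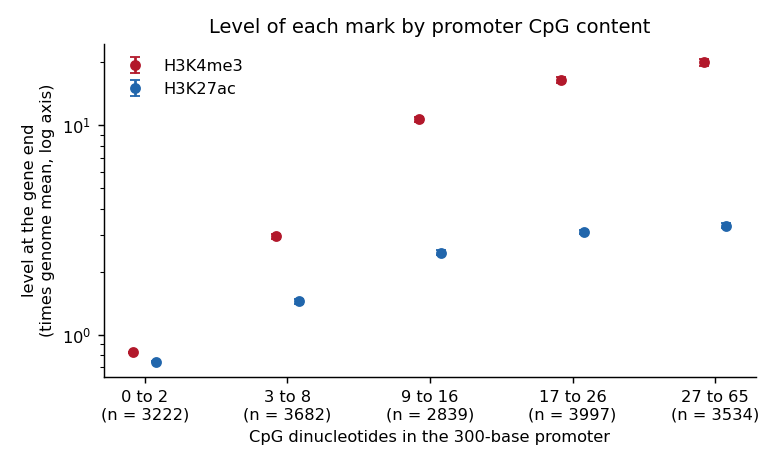
Level of each mark at the gene end, as a multiple of the genome mean on a log axis, for promoters in 5 classes of CpG content; points are means and bars SDs of 3 libraries. The marks lie close together at 0 to 2 CpGs and furthest apart at 27 to 65 CpGs, where H3K4me3 is at 19.96 and H3K27ac at 3.32 times the mean.

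Of 8999 gene ends tested, 8494 were higher in H3K4me3 and 106 lower by edgeR's quasi-likelihood test on library totals (adjusted p under 0.05). These are 94.4% and 1.18% of the ends tested (95.6% in either direction; 59 to 195 were lower when 1 library was left out), so a call of higher says little about a single gene. The median log2 fold change was 2.49, a 5.62-fold higher level in H3K4me3, with 5th and 95th percentiles of 0.63 and 3.65. Changes are therefore also given relative to this median, called the shared shift, by scaling with TMM factors, which put the median at 0.005. On that scale 1204 ends were above the shift (13.4%) and 1585 below it (17.6%), so calls in favour of H3K4me3 made up 43.2% of the differing ends by TMM and 98.8% by library totals. Libraries outside the comparison were of 10000 cells for H3K4me3 and 100 cells for H3K27ac. In them, 8475 of the 8480 higher ends with a ratio and 99 of 106 lower ends kept their direction. Of all tested bins at gene ends, 98.9% had H3K4me3 above H3K27ac there, so the agreement of higher ends says little. The median log2 ratio of tested ends in those libraries was 2.72. Of 1201 ends above the shift with a ratio, 1097 lay above that median, and of 1585 ends below the shift, 1505 lay below that median.

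**Figure D3:**
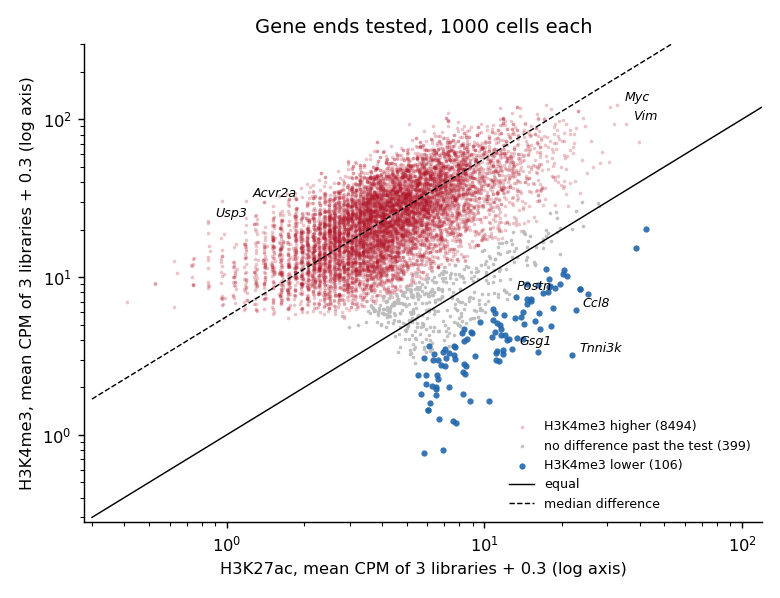
Each point is a gene end tested, at its mean CPM of 3 H3K27ac libraries (x) and of 3 H3K4me3 libraries (y), both on log axes after adding 0.3; colours give the call by library totals. The 8494 red ends follow the dashed line of the median difference, and the 106 blue ends lie below the line of equal levels.

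Usp3 and Acvr2a, the ends with the largest excess of H3K4me3, had few H3K27ac counts, which a ranking by fold change favours. CPM below are counts per 1000000 of the library total, summed over the 3 bins of an end. Usp3 (chr9:66591731-66594730) had 30.6, 15.9 and 20.9 CPM in H3K4me3 libraries, against 0.637, 0.663 and 0.344 CPM in H3K27ac libraries (log2 fold change 5.13, SE 0.48, adjusted p = 1.7e-17). Its 5 H3K27ac counts in all give a ratio of 38.1, with a 95% counting interval of 15.5 to 121. Acvr2a (chr2:48812806-48815805) had 33.3, 28.8 and 28.5 CPM in H3K4me3 libraries, against 0.637, 1.33 and 0.688 CPM in H3K27ac libraries (log2 fold change 4.99, SE 0.39, adjusted p = 2.0e-21). Every H3K4me3 library was more than 20 times above every H3K27ac library at both genes.

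The other 8 of the 10 largest were Wdr5, Mbip, Naa30, Kdm6a, Ipo8, Slc15a4, Haspin and Cbll1, with log2 fold changes of 4.36 to 4.50. Wdr5 had 43.1, 25.1 and 29.4 CPM in H3K4me3 libraries, against 2.23, 1.33 and 0.344 CPM in H3K27ac libraries. Kdm6a (chrX:18160931-18163930), an X-linked demethylase of H3K27, had 29.2, 35.7 and 44.6 CPM in H3K4me3 libraries, against 2.23, 1.66 and 1.03 CPM in H3K27ac libraries. Naa30 is the catalytic subunit of an N-terminal acetyltransferase, Ipo8 a nuclear import receptor, Haspin a histone H3 kinase of mitosis and Cbll1 a ubiquitin ligase. In the 10000-cell H3K4me3 and 100-cell H3K27ac libraries the 10 ends had 20.3 to 39.8 CPM of H3K4me3 and 0.512 to 4.002 CPM of H3K27ac.

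Most ends lower in H3K4me3 were low in that mark: 84 of the 106 had under 20 counts over the 3 H3K4me3 libraries, against 3.44% of all ends tested. The other 22 reached up to 19.8 CPM of H3K4me3. Tnni3k (chr3:155054371-155057370) had 2.78, 3.04 and 2.85 CPM in H3K4me3 libraries, against 22.6, 17.6 and 24.8 CPM in H3K27ac libraries (log2 fold change -2.87, SE 0.38, adjusted p = 6.5e-11). Ccl8 (chr11:82113666-82116665) had 6.95, 3.04 and 7.596 CPM in H3K4me3 libraries, against 20.4, 26.8 and 19.6 CPM in H3K27ac libraries (log2 fold change -2.001, SE 0.33, adjusted p = 4.0e-08). The groups did not overlap at either gene. Gsg1, a germ cell gene in mouse, had 2.78, 3.04 and 3.798 CPM in H3K4me3 libraries, against 11.1, 14.6 and 11.7 CPM in H3K27ac libraries.

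The other 7 of the 10 largest falls were Lman1l (log2 fold change -2.66), Rapgef2 (-2.61), Ly6a (-2.58), Syne3 (-1.92), Ttll1 (-1.87), Serpina1f (-1.87) and Prss56 (-1.87). Ly6a encodes a surface protein also known as Sca-1, Syne3 a nuclear envelope protein that ties the nucleus to intermediate filaments, and Prss56 a secreted protease. Ly6a and Ttll1 were called at marked ends, and at the other end of Ttll1 H3K4me3 averaged 3.45 CPM, against 2.29 CPM of H3K27ac. Rapgef2, an exchange factor for Rap GTPases, shows how a call can depend on which start is taken. At the start used it had 0, 3.04 and 0.9495 CPM in H3K4me3 libraries, against 9.24, 11.3 and 9.98 CPM in H3K27ac libraries. At the other outer end of the gene H3K4me3 averaged 29.4 CPM, against 1.97 CPM of H3K27ac. Syne3 was no longer called when its end was chosen by H3K4me3 in 10000 cells (log2 fold change -0.53).

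Lower calls were more frequent at marked ends, with 48 of 1636 tested, than at annotated starts, with 58 of 7363 tested. Of the 58 lower calls at annotated starts, 42 genes had another start or end to look at. Where a gene had several, the one with the most H3K4me3 was taken, which favours that mark. H3K4me3 exceeded H3K27ac there in 8 of the 42. Of the 48 lower calls at marked ends, 44 had another end, and H3K4me3 exceeded H3K27ac there in 21. Genes not called lower were not looked at in this way. Nuak2, a kinase gene of the YAP programme, and Ccne2, cyclin E2, were called lower at a marked end (log2 fold changes -1.21 and -1.26), and at the other end H3K4me3 averaged 36.2 and 13.1 CPM, against 7.18 and 2.33 CPM of H3K27ac. Marked ends carry no strand, so some lie at the 3′ side of their gene. For these genes the log2 fold change was 2.31 and 2.42 when the end was chosen by H3K4me3 in 10000 cells.

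Markers of the labelled cell type were checked at the same ends. Of 10 myoblast-defining genes, 6 passed the filter on low counts and H3K4me3 was the higher mark at all 6, beside 94.4% over all ends tested. Myf5 (chr10:107484566-107487565), the myogenic factor that is active in proliferating myoblasts, had 38.9, 45.6 and 42.7 CPM in H3K4me3 libraries, against 10.8, 7.95 and 7.57 CPM in H3K27ac libraries (log2 fold change 2.27, SE 0.23, adjusted p = 6.8e-16). Relative to the shared shift the Myf5 value was -0.22 (adjusted p = 0.50). Ncam1, a surface adhesion protein, had 22.1 CPM of H3K4me3 and 2.53 CPM of H3K27ac on average, M-cadherin (Cdh15) 13.8 and 2.67 CPM, integrin alpha 7 (Itga7) 33.7 and 8.75 CPM, and Vcam1 21.04 and 5.40 CPM. Des, the muscle intermediate filament desmin, had 6.95, 7.59 and 10.4 CPM in H3K4me3 libraries, against 3.50, 2.98 and 3.44 CPM in H3K27ac libraries, and was below the shared shift (TMM log2 fold change -1.14, adjusted p = 0.025).

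The other 4 markers did not pass the filter at the end used. Myod1, the defining factor of the myoblast lineage, had 0, 1 and 1 counts in H3K4me3 libraries, against 2, 0 and 1 counts in H3K27ac libraries, at the end used, and 0, 2 and 0 against 0, 1 and 0 at its other end. Chrdl2, an inhibitor of BMP signalling, had no count in any of the 6 libraries at the end used, which allows up to 3 counts over the 3 libraries of a mark. Sgca (sarcoglycan alpha) had 6 H3K4me3 counts over 3 libraries, against 24 H3K27ac counts from larger libraries. In CPM the groups overlapped at Sgca, with 2.78, 0.759 and 2.85 CPM in H3K4me3 libraries, against 3.82, 1.66 and 2.41 CPM in H3K27ac libraries. Musk, the kinase of the neuromuscular junction, had 4 H3K4me3 counts, against 20 H3K27ac counts from the larger libraries. At the downstream end of Musk there were 1.39, 3.04 and 0.9495 CPM in H3K4me3 libraries, against 8.28, 3.98 and 6.54 CPM in H3K27ac libraries. Genes of other lineages are given beside all ends placed, at 10.2 times the genome mean in H3K4me3 and 2.29 times in H3K27ac, and the contractile list, at 4.25 and 1.55 times. Blood markers stood at 2.09 times in H3K4me3 and 1.72 times in H3K27ac, liver markers at 0.977 and 0.964 times, neuronal markers at 1.94 and 1.16 times, and pluripotency genes at 0.342 and 0.514 times. Apob, a liver lipoprotein gene, was the 1 member of those 4 lists called lower, with 0, 4.56 and 0 CPM in H3K4me3 libraries, against 7.64, 9.94 and 6.19 CPM in H3K27ac libraries (adjusted p = 0.00063).

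Splicing genes had more ends above the shared shift than below it, and matrix, cytoskeleton and response genes more below than above, while in most other lists most ends did not differ from it. Because 94.4% of ends were higher by library totals, the groups are set against the 13.4% above and 17.6% below the shift by TMM, and against the median of 2.49. Of 23 splicing and RNA processing ends tested, 13 were above the shift and 0 below, with a median log2 fold change of 3.17. Srsf7, a splicing factor that binds exons, had 41.7, 45.6 and 50.3 CPM in H3K4me3 libraries, against 1.91, 6.63 and 3.78 CPM in H3K27ac libraries. Sf3b1, a subunit of the U2 snRNP, had 38.9, 61.5 and 50.3 CPM in H3K4me3 libraries, against 5.42, 5.96 and 3.10 CPM in H3K27ac libraries.

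Genes of the H3K4 methylation machinery had 6 ends above the shift and 2 below among 17 tested (median 3.06). Kdm5b, a demethylase that removes H3K4me3, had 26.4, 21.3 and 7.596 CPM in H3K4me3 libraries, against 0, 0.994 and 1.03 CPM in H3K27ac libraries (log2 fold change 4.63, SE 0.50, adjusted p = 1.6e-14). Kmt2c and Kmt2d, methyltransferases of enhancers, averaged 30.6 and 76.0 CPM in H3K4me3 libraries, against 2.29 and 6.86 CPM in H3K27ac libraries. The acetylation machinery had 5 above and 4 below among 20 tested (median 2.61), and its writers of H3K27ac were among those above. Crebbp, which encodes CBP, had 44.5, 52.4 and 59.8 CPM in H3K4me3 libraries, against 1.59, 4.64 and 5.51 CPM in H3K27ac libraries. Ep300, which encodes p300, had 80.6, 69.8 and 85.5 CPM in H3K4me3 libraries, against 8.28, 7.95 and 8.26 CPM in H3K27ac libraries, and the deacetylase gene Hdac2 averaged 31.7 CPM in H3K4me3 libraries, against 2.00 CPM in H3K27ac libraries. Cell cycle genes had 7 above and 3 below among 25 (median 2.80), led by the mitotic kinase Plk1 with log2 fold change 3.90 and the proliferation marker Mki67 with 3.76. Ribosomal protein genes followed the shift, with 1 above and 3 below among 30 (median 2.52).

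Extracellular matrix genes had 1 end above the shift and 13 below among 21 tested, with a median of 1.65. Col3a1 (chr1:45309821-45312820), the chain of type III collagen, had 37.5, 34.9 and 39.9 CPM in H3K4me3 libraries, against 16.9, 22.5 and 20.99 CPM in H3K27ac libraries (log2 fold change 0.89, SE 0.21, adjusted p = 4.6e-05; TMM -1.61). Sparc, a collagen-binding glycoprotein, had 40.3, 43.3 and 46.5 CPM in H3K4me3 libraries, against 18.5, 16.2 and 19.3 CPM in H3K27ac libraries (TMM log2 fold change -1.22). Postn (periostin), a matrix protein of connective tissue, had 4.17, 9.87 and 8.55 CPM in H3K4me3 libraries, against 12.4, 15.2 and 8.95 CPM in H3K27ac libraries, and the groups overlapped. Its log2 fold change by totals was -0.60 (adjusted p = 0.087) and its TMM value -3.08. Tenascin C (Tnc) was the member above the shift, with 37.8 CPM of H3K4me3, against 3.296 CPM of H3K27ac on average.

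Cytoskeleton and adhesion genes had 1 above and 9 below among 23 (median 2.06). Vim, the intermediate filament vimentin, had 101, 94.9 and 83.6 CPM in H3K4me3 libraries, against 30.6, 35.5 and 39.6 CPM in H3K27ac libraries (TMM log2 fold change -1.10, adjusted p = 5.8e-10), so both marks were high there. Smooth muscle actin (Acta2) was the member above, with 61.0 CPM of H3K4me3, against 6.77 CPM of H3K27ac. Targets of YAP and TGF-beta had 1 above and 9 below among 19 (median 1.99), the marked end of Nuak2 among the 9. Ankrd1, a YAP target and muscle stress protein, had 108, 85.8 and 85.5 CPM in H3K4me3 libraries, against 24.5, 36.1 and 34.1 CPM in H3K27ac libraries (TMM log2 fold change -0.96, adjusted p = 1.3e-07), and Skil, a repressor of SMAD signalling, was the member above (TMM 0.98).

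Immediate early genes, which respond to serum within minutes, had 1 above and 11 below among 23 (median 1.97). Myc (chr15:61983751-61986750) had 138, 109 and 122 CPM in H3K4me3 libraries, against 27.1, 34.1 and 36.5 CPM in H3K27ac libraries (log2 fold change 1.90, TMM -0.61, adjusted p by TMM = 0.00047). Klf2 was the member above, with 29.6 CPM of H3K4me3, against 2.12 CPM of H3K27ac, and Jun (78.0 and 12.1 CPM) did not differ from the shift past the test (TMM 0.16, adjusted p = 0.57). Myogenic regulators had 1 above and 3 below among 12 (median 2.00). The transcriptional coactivator Eya4 was above (log2 fold change 3.70), and the MADS-box factor Mef2d was among those below (1.61). Replication-dependent histone genes had 0 above and 51 below among 55, with a median of -0.01 and 39 of the 55 not differing by library totals. The list also holds H1f10, which is not replication-dependent. Neighbouring members can share bins, as H4c1 and H3c1 did, so the 55 ends are not all separate. Many members of this list are near-identical copies. The treatment of their multiply mapped reads is not stated, and its effect on these values was not tested. Housekeeping genes had 3 above and 6 below among 25 (median 2.45), inhibitors of myogenesis 1 and 2 among 15 (2.27), Hox genes 1 and 2 among 15 (2.39) and contractile genes 0 and 1 among 4 (2.34). Of 30 transcription factors of other lineages 2 were tested (median 2.58), and of 57 clustered protocadherins 1 (2.91), and neither list had an end off the shift. Nothing particular to a list was tested.

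**Figure D4:**
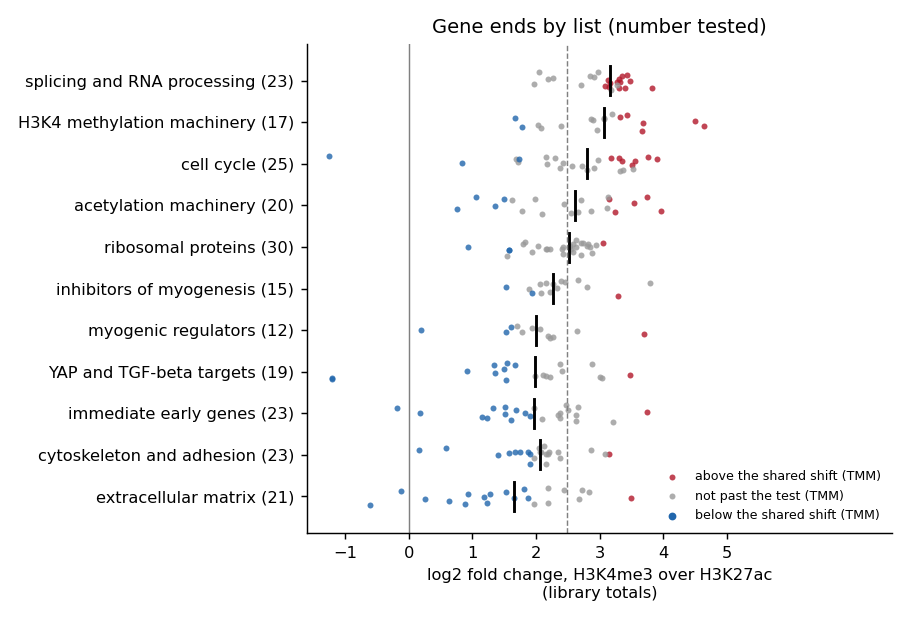
Log2 fold change of H3K4me3 over H3K27ac by library totals for the tested ends of 11 gene lists, 1 point per end; black ticks are list medians, the solid line is 0 and the dashed line the median of all ends, and colours give the call relative to the shared shift by TMM. Splicing genes lie right of the dashed line and matrix genes mostly left of it, with medians of 3.17 and 1.65.

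Across the genome, 21725 bins of 1 kb passed the filter, of which 84.6% differed: 14756 were higher in H3K4me3 (67.9%) and 3630 lower (16.7%). The balance turned away from gene ends. Of 8035 distal bins tested, 1927 were higher in H3K4me3 (24.0%) and 3448 lower (42.9%). The filter sets the same CPM cut-off for all libraries, and thinning raises that cut-off. With all libraries thinned to 719766 counts, 443 distal bins were called higher and 68 lower. At full depth with a filter of 20 counts, 865 were higher and 511 lower, so the order of these counts depends on the cut-off. By TMM, 410 distal bins were higher and 6355 lower. Leaving out H3K4me3 replicate 1, 2 or 3 gave 7381, 6256 or 6665 lower distal bins, and leaving out H3K27ac replicate 1, 2 or 3 gave 1498, 1190 or 1331. Higher distal bins had a median of 11.5 CPM of H3K4me3 and 2.65 CPM of H3K27ac, and lower ones 2.00 CPM of H3K4me3 and 7.73 CPM of H3K27ac. In the libraries of 10000 and 100 cells, 98.2% of the higher and 97.9% of the lower distal bins kept their direction. Of all distal bins tested, 36.8% had H3K4me3 above H3K27ac in those libraries.

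Distal bins higher in H3K4me3 often had a start of another kind nearby. Of these bins, 20.7% lay near an end of a noncoding gene and 16.7% near another annotated start of a coding gene, 35.1% with either. Among all distal bins tested 15.0% had either, and among lower ones 7.05%. Higher bins lay closer to gene ends as well, at a median of 6589 bases, against 36965.5 bases for lower bins. Both kinds had a median near 2 CPM of CTCF and of Pol2S2P in 1000 cells, with 2.32 and 2.02 CPM at higher bins and 2.18 and 2.63 CPM at lower ones.

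One of the strongest was inside Dcun1d4, a regulator of cullin ligases (chr5:73491706-73492705). The bin had 15.3, 15.9 and 19.0 CPM in H3K4me3 libraries, against 0.319, 0 and 1.03 CPM in H3K27ac libraries (log2 fold change 5.07, SE 0.52, adjusted p = 4.3e-16). It lies 10651 bases from the nearest gene end and beside an internal annotated start, whose RefSeq promoter (GRCm38.p6, chr5:73490776-73491075, plus strand) is printed here because it is as rich in CpG, with 25, as those of the strongest gene starts.
Dcun1d4 internal start: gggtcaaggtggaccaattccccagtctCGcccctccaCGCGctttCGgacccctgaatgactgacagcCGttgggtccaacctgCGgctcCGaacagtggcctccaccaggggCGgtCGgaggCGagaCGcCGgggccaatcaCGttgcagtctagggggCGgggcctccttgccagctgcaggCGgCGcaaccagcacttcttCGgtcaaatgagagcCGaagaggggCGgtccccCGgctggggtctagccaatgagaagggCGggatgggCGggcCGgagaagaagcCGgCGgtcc

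The other 4 of the 5 largest were 2 bins on the X, inside Nxf3 and 241495 bases from Tex13c3 beside a noncoding gene end, a bin 3813 bases from Nr2f1, a nuclear receptor, and a bin near 4930467E23Rik on chromosome 8. The Nr2f1 bin had 15.3, 9.11 and 15.2 CPM in H3K4me3 libraries, against 0.637, 0 and 0.344 CPM in H3K27ac libraries. With 3 H3K27ac counts its ratio was 38.1, with a 95% counting interval of 12.1 to 193. The bin near 4930467E23Rik also had 8.06 CPM of CTCF, the staining partner of H3K4me3.

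The 5 distal bins with the largest falls had no H3K4me3 count in any of the 3 libraries. They lay inside Cdh18, Rbks, Fmn1 and Myo3a and beside Prl2c3, and their H3K27ac counts summed to 83 to 106 over 3 libraries. With a floor of 3 counts over the group in place of 0, H3K4me3 would be 9.43-fold to 12.05-fold lower. The exact 95% interval of the ratio is wider, with upper limits of 0.104 to 0.133. The Rbks bin (chr5:31628876-31629875), inside the ribokinase gene, had 11.1, 9.61 and 10.3 CPM in H3K27ac libraries. The Cdh18 bin (chr15:22733911-22734910), inside a cadherin gene, had 7.96, 13.9 and 13.4 CPM in H3K27ac libraries. The Myo3a bin also had 7.46 CPM of Pol2S2P, the staining partner of H3K27ac, beside 9.28 CPM of H3K27ac. In the libraries of other cell numbers these bins had 0 to 7 counts of H3K4me3 and 24 to 72 counts of H3K27ac.

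Most runs of adjoining distal calls were 1 bin long: 1232 of 1960 runs of lower bins (62.9%) and 801 of 1211 runs of higher bins (66.1%). The longest unbroken run of lower bins was 23 bins near Hmga2 (chr10:120613511-120636510), an architectural chromatin protein of proliferating cells. It had 155 H3K4me3 counts and 2561 counts from the larger H3K27ac libraries, with a median log2 fold change of -2.42. Runs of 16 bins near Myc and 15 near Clec10a followed. The longest run of higher bins was 10, near Ppara (chr15:85666656-85676655), with 856 H3K4me3 and 918 H3K27ac counts and a median log2 fold change of 1.14. As the nearest coding gene, Myc had the most lower bins, 54, followed by Cited2 and Vmp1 with 36 each, Mtap with 35 and Lpp with 29. The lower bins spanned 1168 kb for Myc, 1043 kb for Cited2 and 632 kb for Lpp, against 77 kb for Vmp1 and 153 kb for Mtap. Tested bins per gene were not counted, so these numbers are not rates. These 5 genes hold 190 of the 3448 lower distal bins (5.51%). These counts describe where the calls fell and rest on the calls themselves. Over its 54 bins Myc had 91.7, 112 and 105 CPM in H3K4me3 libraries, against 512, 548 and 565 CPM in H3K27ac libraries. In libraries that made no call, the same bins had 118 CPM of H3K4me3 in 10000 cells, against 559 CPM of H3K27ac in 100 cells.

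The Myc region showed both patterns side by side. In the 20 kb window just downstream of the middle of its end, H3K4me3 averaged 11.96 ± 0.935 CPM per bin, against 4.70 ± 0.146 CPM of H3K27ac (SD, n = 3 each). In 68 of the 71 windows H3K27ac was above H3K4me3, some of them with little of either mark. The window centred 50 kb downstream was not among them, with 8.95 ± 1.02 CPM of H3K4me3, against 4.71 ± 0.337 CPM of H3K27ac. The share of such windows over the genome was not taken. Distal bins of the whole genome held 67.8% of H3K4me3 counts and 87.9% of H3K27ac counts. H3K27ac was high between 300 and 360 kb downstream. The window centred 350 kb downstream had 1.26 ± 0.3001 CPM of H3K4me3, against 7.26 ± 0.309 CPM of H3K27ac, and 11 of its bins were called lower. Upstream, windows centred at -450 and -370 kb had 0.62 and 0.53 CPM of H3K4me3, against 3.999 and 3.946 CPM of H3K27ac. Cited2, a CBP-binding coactivator, was of the same kind, with 52.8, 67.6 and 57.0 CPM in H3K4me3 libraries over its 36 bins, against 297, 322 and 317 CPM in H3K27ac libraries, while its own gene end was higher in H3K4me3 (log2 fold change 2.68).

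**Figure D5:**
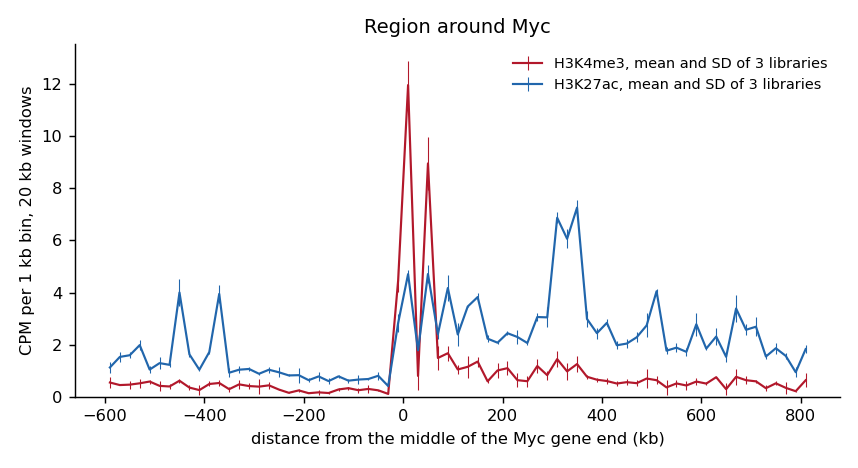
CPM per 1 kb bin in 20 kb windows against distance in kb from the middle of the Myc gene end, as means with SD bars of 3 libraries per mark. H3K4me3 peaks at the gene end and about 50 kb downstream, H3K27ac is above H3K4me3 in 68 of 71 windows, and it reaches 7.26 CPM in the window centred 350 kb downstream.

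Ranking ends by libraries outside the comparison gave a graded view of both marks. In the lowest 20% by H3K4me3 in 10000 cells (4282 ends), the 1000-cell level was 0.304 times the genome mean for H3K4me3, against 0.352 times for H3K27ac. In the middle 20% it was 2.90 times, against 1.87 times for H3K27ac, and in the highest 20% it was 33.7 times, against 5.39 times for H3K27ac. Ranked by H3K27ac in 100 cells, the lowest 20% had 0.512 times for H3K4me3 and 0.370 times for H3K27ac, and the highest 27.96 times for H3K4me3 and 6.02 times for H3K27ac. Silent olfactory and vomeronasal receptor genes, 1443 ends, lay at 0.359 times for H3K4me3 and 0.433 times for H3K27ac.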

How the data were processed

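mtChIL-seq libraries of H3K4me3 (with CTCF) and H3K27ac (with Pol2S2P) from 1000 C2C12 cells, 3 each, were compared; 28 of 34 labelled samples matched a column of the deposited table, and 4 columns matched none and were not used; the other 6 samples were not analysed here. The table deposited by the authors holds unscaled counts, 1 row per 1 kb bin. Per the submitters' processing notes, bcl2fastq, HISAT2 2.1.0, deepTools 3.3.1 and GRCm38 were used; the treatment of duplicates and multiply mapped reads is stated in none of the sources used here. Counting intervals (95%, exact) and floors (3 counts) cover counting error only. Bins of the autosomes and X were kept (2631639), less 9 above 50 times the mean in all groups.

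Gene starts came from RefSeq (GRCm38.p6). Of 21631 coding genes, 17274 ends were annotated starts, 4135 were marked ends by the single-stained CTCF and Pol2S2P libraries, and 222 ties were left out; 13.2% of ends shared bins with another gene. Where both were known, the marked end was the annotated one in 65.4% of 16679 genes, and in 85.8% of 6969 with at least 50 H3K4me3 counts in 10000 cells.

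Counts were tested with edgeR 4.0.16 (quasi-likelihood, filterByExpr) in R 4.3.3, with library totals as library sizes, Benjamini-Hochberg adjustment over all ends or bins tested and a threshold of 0.05, after a test on simulated data. TMM and DESeq2 1.42.0 were alternatives. Shares were compared by exact permutation of libraries (scipy 1.17.1). Python 3.11.15, numpy 2.4.6, pandas 2.3.3 and matplotlib 3.10.9 were used. Replicates within a group differed by more than counting noise (chi-square per degree of freedom 1.21 to 1.32), and nothing says that they are separate cultures, so p-values reflect library-to-library spread that may be technical. Named ends are 10 per direction, ranked by fold change (called, no overlap, no shared bins, each library of the higher group with 20 counts or more), the leading called members of 23 lists and the myoblast-defining genes; named bins are the 5 largest distal ones in each direction (at least 10 counts, 1 bin per 5 kb and gene). Members named for their place relative to the shared shift, and the genes with the most or longest distal calls, were chosen after their values were seen. The comparison, lists and tests were chosen with earlier results of these data known.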

Additional observations from a re-analysis of the deposited data

How the results depend on the processing

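Every share, the concentration in the top bins and their directions held under all alternatives run (wider ends, both gene ends, distal over 5 kb, no thinning, the top 0.1%, and leaving out each library, which gave differences of 16.2 to 16.9 points at gene ends). Replicate numbers did not pair the libraries, since correlations of same-numbered deviations lay between -0.006 and 0.012; with the replicate block, 8480 ends were higher and 108 lower, and the sign-flip test over pairs gave p = 0.25, the smallest that 3 pairs allow. The block moved all bins to 14652 higher and 3505 lower.

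Scaling moved most calls. TMM gave 2789 differing ends (1204 higher, 1585 lower) and DESeq2 1858 (671 and 1187); over bins TMM gave 6328 higher and 7492 lower (distal 410 and 6355) and DESeq2 9731 differing, 2644 and 7087 (distal 142 and 6165). Thinning, which leaves fewer ends to test, gave 5580 differing ends, 5559 higher and 21 lower, and 3916 bins, 3843 and 73 (distal 443 and 68). The number of lower ends was 291 with no filter, 46 with a filter of 20 counts, 365 within 2.5 kb, 269 with both gene ends, 220 and 182 with the end chosen by H3K27ac in 100 cells or marked for every gene, and 59 to 195 leaving out 1 library (195, 165 and 185 without H3K4me3 replicate 1, 2 or 3; 59 and 62 without H3K27ac replicate 2 or 3). A filter of 5 counts gave 30976 differing bins, 9424 lower (distal 3671 and 8963), and one of 20 counts 8059, 7522 higher and 537 lower (distal 865 and 511). Leaving out 1 library gave 15398 to 27646 differing bins, 1256 to 7782 lower, 14082 to 19864 higher, and 1747 to 3152 higher and 1190 to 7381 lower distal bins: any H3K4me3 library left out raised the lower bins to at least 6568 and any H3K27ac library left out brought them to at most 1571, since the number tested moved between 16542 and 40875. Distal bins over 5 kb from gene ends were 1108 higher.

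Values that changed sign by TMM and DESeq2 were Ankrd1 (-0.96 and -0.95), Vim (-1.10 and -1.10), Col3a1 (-1.61 and -1.605), Sparc (-1.22 and -1.22), Myc (-0.61 and -0.60), Cdh15 (-0.034 and -0.061), Myf5 (-0.22 and -0.22), Itga7 (-0.52 and -0.52), Vcam1 (-0.51 and -0.52), Des (-1.14 and -1.16) and Mef2d (-0.88 and -0.87), as both centre the ends tested. The choice of end turned Rapgef2 (3.86 by H3K4me3, H3K27ac or single-stained libraries, 3.24 with both ends), Nuak2 (2.31 by H3K4me3, 0.82 with both ends) and Ccne2 (2.42, 0.83), and with marked ends for every gene Vim was at -0.14. The smaller totals of the H3K4me3 libraries limit what can be called lower.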
